A study of Homo sapiens with 80 samples.

Results

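The hypoxia response and glycolysis genes were a set of 39 genes, listed by name, out of 43388 genes in the expression tables. They comprised 17 glycolytic enzymes, 5 glucose and lactate carriers and PFKFB enzymes, 15 other genes that respond to low oxygen, and the 2 genes of the HIF alpha subunits. All 39 were found in both experiments and passed both filters on low values. BNIP3 and DDIT4 were selected on their measured day 0 difference between high and low purity cells, so the day 0 comparison is described without a test. Their tests on later days of the same differentiations are not independent of that choice. All members were listed with earlier results of these data known. Levels are given in TPM, the usual measure of transcript abundance scaled for gene length and library depth.

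Human pluripotent stem cells were driven to cardiomyocytes by the GiWi protocol, in which CHIR99021, which activates WNT signalling by blocking GSK3, was given on day 0 and IWP2, which blocks WNT secretion, on day 2 for WTC11 or day 3 for the other lines. All groups were kept in RPMI1640 with B27, without insulin at first and with insulin from day 6 (WTC11) or day 7 (other lines). Purity, high or low, was assigned to each differentiation afterwards from the share of cells with cardiac troponin T. The multi-omic experiment used 56 poly(A) libraries, all from the induced pluripotent line WTC11. Its high purity wells all came from 1 differentiation at passage 52 (25 libraries) and its low purity wells from 1 differentiation at passage 69 (31 libraries), so purity, passage and differentiation cannot be told apart there, and its p-values measure only the spread between wells. There were 4 wells of each class on days 0, 2, 4 and 6, 3 high and 4 low wells on day 8, 1 and 4 on day 10, 2 and 4 on day 13, and 3 of each on day 16. The RNA-only experiment held 24 total RNA libraries from 3 lines, 1 differentiation of either class per line, at 4 stages with 1 library each: stage 1 was day 0, stage 2 was day 2 (WTC11) or 3, stage 3 was day 4 or 5, and stage 4 was day 6 or 7. These were H9, an embryonic stem cell line (high at passage 58, low at passage 55), IMR90-4, an induced pluripotent line (55 and 75), and WTC11 (81 and 69).

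When oxygen is scarce, the prolyl hydroxylases EGLN1 and EGLN3 lose activity, the alpha subunits HIF1A and EPAS1 (HIF-2 alpha) escape degradation, and with their partner ARNT they bind a short DNA element, the hypoxia response element, at their target genes. The targets include most enzymes that turn glucose into lactate, the carriers that bring glucose in and lactate out, and genes outside glycolysis such as BNIP3, which marks mitochondria for removal, DDIT4, which restrains mTORC1, and VEGFA, which makes blood vessels grow. HIF alpha is controlled chiefly as a protein, so its mRNA level does not report its activity. Pluripotent stem cells rely strongly on glycolysis, and cardiomyocytes come to rely on mitochondrial respiration as they mature.

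Libraries held 6579715 to 18143597 reads in the multi-omic experiment and 17990882 to 40357968 in the RNA-only experiment. The defining markers fitted the labels on day 0 and day 16: 6 pluripotency markers summed to at least 3768 TPM in the high wells of day 0, and 8 cardiomyocyte markers to 12417 to 14413 TPM in the high and 4643 to 6429 TPM in the low wells of day 16. Markers of other cell types also differed between the classes, on day 2 as given with the results and on later days. On day 4 the cardiomyocyte markers summed to 166 to 219 TPM in the high and 2716 to 3390 TPM in the low wells, and on day 16 the 7 stromal markers summed to 574 to 690 TPM in the high and 9669 to 13143 TPM in the low wells. In such bulk samples fewer cells of a type and less RNA per cell cannot be told apart. ALDOA was read at 1.95 to 13 TPM although it is among the most abundant enzymes of most cells, and it overlaps another annotated gene, so its values are uncertain. BNIP3 overlaps PPP2R2D, SLC16A3 overlaps CSNK1D and MIR6787, and HIF1A overlaps 2 antisense genes, whose reads were not separated here beyond what the authors' counting did.

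RefSeq promoter sequences, from 250 bases before to 50 bases after the start of transcription (GRCh38.p14), were matched for 35 of the 39 genes, all but SLC2A3, BNIP3L, VEGFA and NDRG1. The core of the hypoxia response element was searched on both strands, first as ACGTG and then also in its weaker form GCGTG. The letters ACGTG were present in 15 of the 35 promoters (42.9%), against 21.6% of 27305 promoters of the same length, and either form in 26 (74.3%), against 48.4%. By group, ACGTG was present in 8 of 17 glycolytic enzymes (47.1%), in 7 of 12 other oxygen-response genes (58.3%), and in 0 of 4 carriers and PFKFB enzymes and 0 of 2 HIF alpha subunits. ACGTG is also part of CACGTG, the E-box bound by MYC and other factors, which was in 17.1% of the members' and 7.43% of all promoters. A match is a run of letters and not evidence that a factor binds. SLC16A3 and PDK1, also named in several comparisons, held neither form, and SLC2A1 and HIF1A held GCGTG alone. The stretches below, which all hold ACGTG on either strand, are from 6 other genes named in many of the comparisons that follow. They run 5′ to 3′ on the gene's own strand, and the capitals mark each copy of either form, on this strand or, as its reverse complement, on the opposite one.
BNIP3, chr10:131982024-131982084, minus strand: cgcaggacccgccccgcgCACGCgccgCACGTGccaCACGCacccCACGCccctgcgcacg
DDIT4, chr10:72273771-72273831, plus strand: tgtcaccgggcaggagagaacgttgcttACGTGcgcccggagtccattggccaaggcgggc
ALDOC, chr17:28576896-28576951, minus strand: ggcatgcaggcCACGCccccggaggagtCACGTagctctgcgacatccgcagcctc
ENO2, chr12:6914434-6914494, plus strand: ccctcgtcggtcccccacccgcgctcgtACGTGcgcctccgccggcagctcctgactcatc
PGK1, chrX:78104037-78104097, plus strand: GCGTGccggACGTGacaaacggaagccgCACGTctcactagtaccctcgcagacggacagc
LDHA, chr11:18394462-18394522, plus strand: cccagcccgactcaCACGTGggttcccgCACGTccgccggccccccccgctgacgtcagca
Over the whole promoter, copies of either form numbered 6 in BNIP3, 4 in DDIT4, 5 in ALDOC, 1 in ENO2, 4 in PGK1 and 6 in LDHA. Copies of ACGTG alone numbered 2, 1, 3, 1, 3 and 5 in the same order. CACGTG reads the same on either strand and was counted on each.

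On day 0 BNIP3 was at 278, 391, 386 and 325 TPM in the 4 high wells and at 55.6, 52.3, 59.7 and 66.4 TPM in the 4 low wells. DDIT4 was at 53, 68.2, 65.2 and 57.3 TPM in the high and 7.97, 9.69, 11.5 and 10.8 TPM in the low wells. For both genes every high well lay far above every low well, with differences of 2.47 (BNIP3) and 2.45 (DDIT4) on the log2 scale. Of the 39 members, 12 were at least 2-fold higher in the high wells, where 0.76% of all genes were, and 36 had a positive difference, where 51.4% of all genes had. Nothing is read from these shares, because this comparison chose members. The 12 were 4 carriers and PFKFB enzymes and 8 other oxygen-response genes, with none of the 17 glycolytic enzymes among them. The enzymes had a median difference of 0.36 and ranged from -0.09 (ALDOA) to 0.83 (ENO2), and the other oxygen-response genes had a median of 1.01, or 0.93 without BNIP3 and DDIT4. The smallest values among the 12 were P4HA1 at 1.01 and KDM3A at 1.02, and the largest below them was ANKRD37 at 0.93, which rested on 0 to 2 reads per low well. HIF1A stood at 198 to 213 TPM in the high and 206 to 221 TPM in the low wells, which overlapped in TPM.

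**Figure D1:**
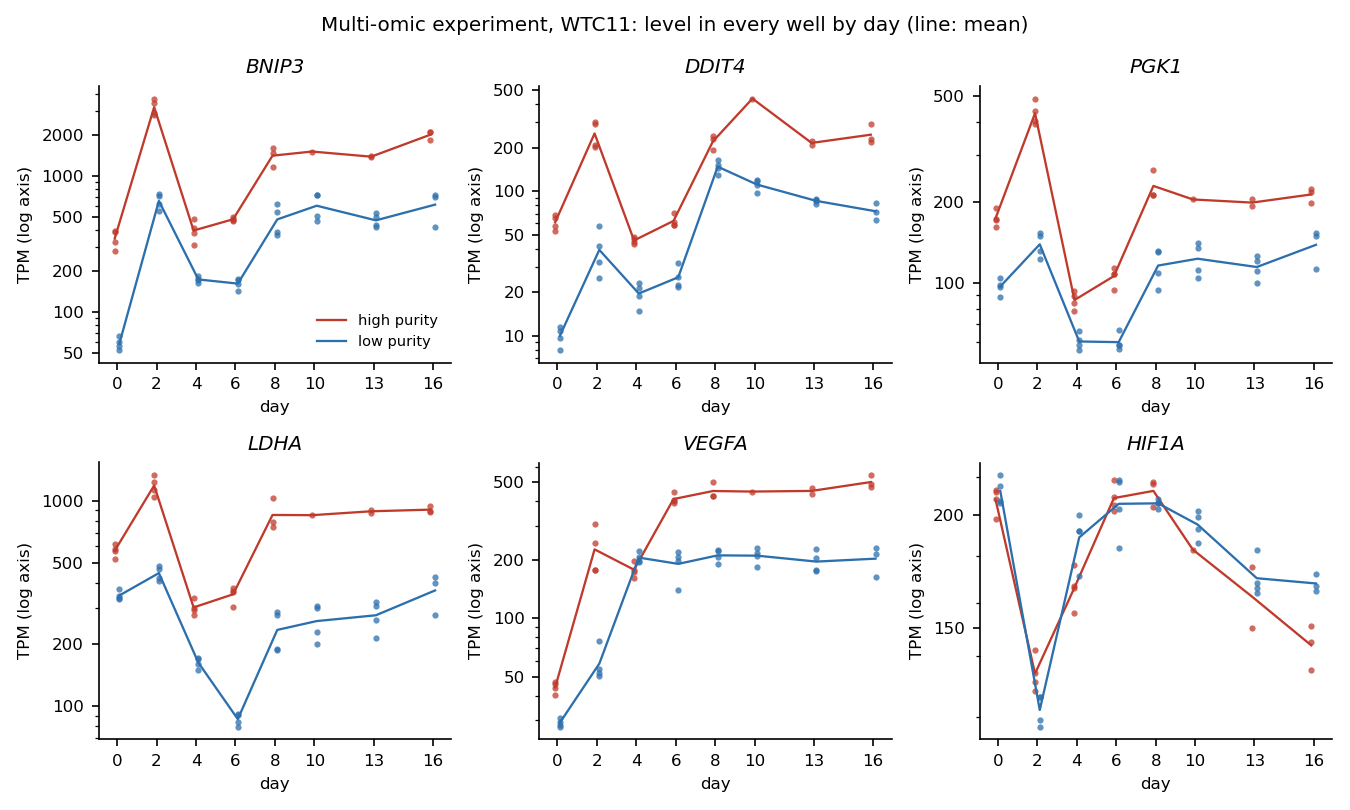
TPM (log axis) of BNIP3, DDIT4, PGK1, LDHA, VEGFA and HIF1A in every well of the multi-omic experiment, by day. Points are wells, lines join the means, and red marks high and blue low purity. BNIP3 was above the low wells in every high well on each day, whereas the HIF1A points of the classes lie close together.

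Tests in the multi-omic experiment used limma on log2(TPM + 1) after TMM scaling over 25664 genes, and a gene was called when its Benjamini-Hochberg adjusted p was below 0.05 and its log2 fold change at least 1 in size. This scale understates the change of genes near 1 TPM. On day 2, after WNT activation, 25 of 39 members were called higher in the high wells and 0 lower. Over all genes 2.25% were called higher and 3.07% lower. The 25 comprised 9 of 17 glycolytic enzymes, 5 of 5 carriers and PFKFB enzymes, and 11 of 15 other oxygen-response genes, and neither HIF alpha subunit. BNIP3 and DDIT4 were among these 11. In 36 of 39 members every high well lay above every low well, where 19% of all genes had that order. The members together made up 1.858% ± 0.173 (SD, n = 4) of all TPM in the high and 0.806% ± 0.030 (n = 4) in the low wells.

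Among the oxygen-response genes of day 2, BNIP3 was at 2900, 3695, 3408 and 2792 TPM in the high wells and at 553, 704, 740 and 616 TPM in the low wells. The log2 fold change of BNIP3 was 2.36 (SE 0.16, limma adjusted p = 7.25e-16). In DDIT4 the high wells stood at 202, 292, 302 and 209 TPM and the low wells at 25.3, 42.1, 57.3 and 32.5 TPM, the largest difference of any member on this day (2.75, SE 0.16, limma adjusted p = 8.49e-18). Neither gene's wells overlapped between classes. ADM, the secreted vasodilator adrenomedullin, was at 62.9, 82.9, 86.1 and 68.5 TPM in the high and 13.4, 18.4, 27.7 and 11.8 TPM in the low wells (2.14, SE 0.16, limma adjusted p = 2.45e-14). VEGFA averaged 226 ± 62.3 TPM in the high and 58.4 ± 12.1 TPM in the low wells (SD, n = 4 each) and differed by 1.98 (SE 0.13, limma adjusted p = 1.18e-16). The prolyl hydroxylase EGLN1, itself a target that feeds back on HIF alpha, was called at 1.47, as were the collagen prolyl hydroxylases P4HA1 (1.83) and P4HA2 (1.63), the histone demethylase KDM3A (1.39), the BNIP3 relative BNIP3L (1.53), ANKRD37 (1.41) and the mitochondrial adenylate kinase AK4 (1.81). NDRG1, EGLN3 and PDK1, the kinase that shuts off pyruvate dehydrogenase, had differences of 0.93, 0.70 and 0.85, below the fold needed for a call. CA9, a carbonic anhydrase widely used as a hypoxia marker, was measured by 0 to 8 reads per high well and 1 to 9 per low well, and a difference was not detectable at this depth.

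In the glycolytic chain of day 2 the largest difference was at its entry. HK2, the inducible hexokinase, was at 173, 227, 203 and 158 TPM in the high and 23.7, 34, 37.1 and 27.8 TPM in the low wells (2.67, SE 0.13, limma adjusted p = 1.17e-20), whereas its housekeeping counterpart HK1 differed by 0.67. ENO2, an enolase isoform best known from neurons, was at 303, 404, 379 and 292 TPM in the high and 79.8, 88.2, 95.3 and 85.7 TPM in the low wells (2.03, SE 0.18, limma adjusted p = 2.32e-12). The more abundant enolase ENO1 differed by 0.83, and so the isoform with lower TPM showed the larger difference. PGK1, which makes the first ATP of the pathway, was at 392, 489, 440 and 403 TPM in the high and 123, 149, 154 and 131 TPM in the low wells (1.69, SE 0.10, limma adjusted p = 2.16e-17). LDHA, which turns pyruvate into lactate, was at 1040, 1336, 1243 and 1136 TPM in the high and 409, 484, 466 and 421 TPM in the low wells (1.48, SE 0.13, limma adjusted p = 2.39e-12). LDHB, the subunit favoured by respiring tissues, averaged 666 ± 25.7 and 687 ± 19.9 TPM in the high and low wells (SD, n = 4 each). The remaining enzymes called were ALDOC (1.47), GPI (1.29), PFKL (1.15), TPI1 (1.06) and GAPDH (1.01), and those not called had differences from 0.02 (LDHB) to 0.89 (PFKP). Among the carriers, SLC2A1, the widespread glucose carrier, differed by 2.02, SLC2A3, the high-affinity glucose carrier, by 1.82, and SLC16A3, the lactate exporter, by 1.72. PFKFB3 and PFKFB4, which set the level of the allosteric activator of phosphofructokinase, differed by 1.25 and 1.65.

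Neither HIF alpha mRNA was called on day 2. HIF1A was at 131, 134, 128 and 142 TPM in the high and 117, 126, 126 and 119 TPM in the low wells, so that the wells did not overlap but the difference was 0.20 (SE 0.06, limma adjusted p = 0.00564). EPAS1 was measured by 1 to 7 reads per high well and 4 to 9 reads per low well. Of 9 measured other components of the HIF pathway, which include the partner subunits and regulators, 0 were called on day 2. The lists of other genes used here and below were chosen with earlier results of these data known, so their counts are no independent check. Of 20 textbook HIF targets outside the 39 genes, 12 were called higher and 0 lower, where 2.25% and 3.07% of all genes were. Their median difference was 1.35 where the median of all genes was near 0. STC2, a secreted glycoprotein, led them at 2.50 (SE 0.10, limma adjusted p = 2.9e-23), followed by INSIG2, which holds back sterol synthesis, at 1.86 (SE 0.14, limma adjusted p = 3.27e-14). In neighbouring pathways, 0 of 7 pentose phosphate genes were called on day 2, with 3 past the adjusted p alone and a median of 0.36. Of 9 mitophagy genes 0 were called, with 7 past it and a median of 0.51. Over all genes 37.4% passed the adjusted p alone, so the 3 of 7 are near that share. Of 12 genes of pyruvate entry into mitochondria 1 was called, the pyruvate dehydrogenase kinase PDK3 (1.07, SE 0.11, limma adjusted p = 8.6e-11). Of 10 stress genes that share inducers with DDIT4, the glucocorticoid target TSC22D3 was higher (1.17, SE 0.12, limma adjusted p = 1.09e-10) and TXNIP, which rises with glucose and blocks its uptake, was lower (-1.69, SE 0.12, limma adjusted p = 3.46e-15). Pluripotency markers also summed higher in the high wells of day 2, at 1149 to 1178 TPM against 790 to 830 TPM, with NANOG and SOX2 called. Endothelial markers summed to 195 to 228 TPM in the high and 62.6 to 84 TPM in the low wells, with KDR called (1.62) and CDH5 at 0 in every well of both classes, and endoderm markers to 70.7 to 130 TPM against 46.6 to 52.9 TPM, with FOXA2 called (1.23). Epicardial markers were lower, at 14.9 to 29.8 TPM against 37.8 to 44.8 TPM, as were cardiomyocyte markers, at 39.3 to 42 TPM against 56.4 to 65.9 TPM, with MYL7 and TTN called lower, and stromal markers, at 192 to 215 TPM against 225 to 247 TPM. None of these sums overlapped between the classes. Their part in the result was not tested.

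**Figure D2:**
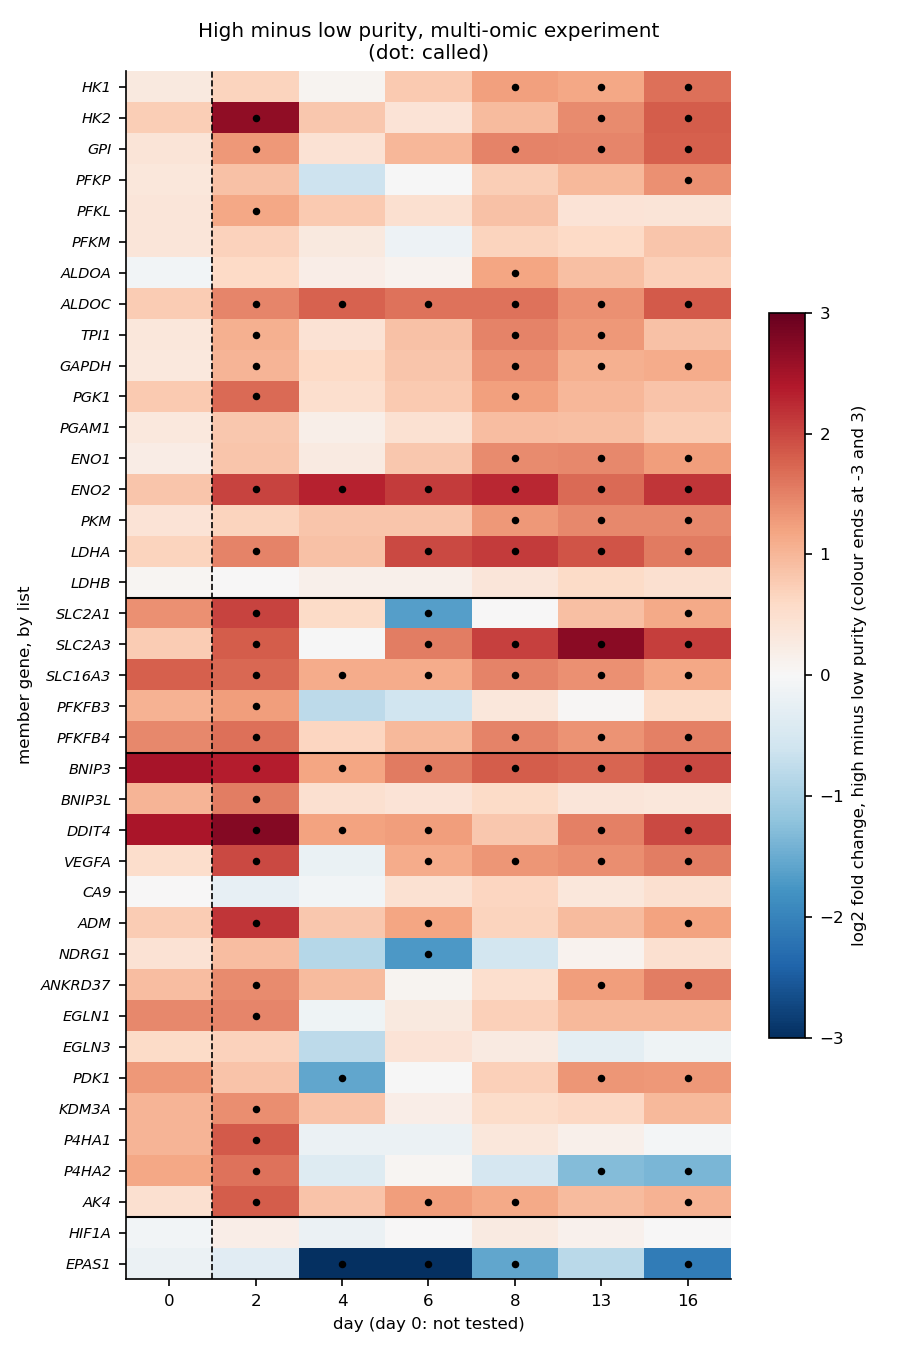
Log2 fold change, high minus low purity, of the 39 members on days 0, 2, 4, 6, 8, 13 and 16 of the multi-omic experiment, with members in rows by group. Dots mark calls (limma adjusted p below 0.05 and log2 fold change at least 1), and day 0 was not tested. Day 2 carries the most calls, and the blue cells of EPAS1, SLC2A1, NDRG1, PDK1 and P4HA2 mark the 5 members that were called lower on some day.

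On day 4 fewer members differed. Of the 39, 5 were called higher and 2 lower, where 3.62% of all genes were called higher and 4.22% lower. The glycolytic enzymes called were ENO2 and ALDOC, the aldolase isoform best known from brain. ENO2 was at 97.4, 87, 106 and 85.1 TPM in the high and 14.9, 21.1, 21 and 16.9 TPM in the low wells (2.30, SE 0.18, limma adjusted p = 3.01e-14). ALDOC was at 18.6, 17.3, 23.4 and 15.4 TPM in the high and 3.09, 5.46, 5.98 and 4.53 TPM in the low wells (1.78, SE 0.17, limma adjusted p = 2.95e-12). BNIP3 (1.18, SE 0.16), DDIT4 (1.20, SE 0.16) and SLC16A3 (1.11, SE 0.14) were higher in all high wells (limma adjusted p = 5.70e-08, 4.64e-08 and 4.43e-09). LDHA (0.89) and PGK1 (0.51) were below the fold for a call, and VEGFA was at 162 to 198 TPM in the high and 195 to 222 TPM in the low wells, with wells that overlapped.

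The 2 members lower on day 4 were PDK1 and EPAS1. PDK1 was at 30.6, 19.8, 26 and 29.2 TPM in the high and 85.2, 80.9, 76.2 and 76.8 TPM in the low wells (-1.57, SE 0.11, limma adjusted p = 1.99e-15). EPAS1, the alpha subunit most abundant in endothelium, was at 1.34, 1.2, 1.37 and 1.24 TPM in the high and 38.6, 37.8, 31.4 and 43.7 TPM in the low wells (-4.05, SE 0.16, limma adjusted p = 3.69e-24). On day 2 EPAS1 had been at 0.054 to 0.254 TPM in the high and 0.278 to 0.621 TPM in the low wells. The endothelial markers summed to 220 to 280 TPM in the high and 357 to 377 TPM in the low wells on day 4. These sums overlapped on day 6 (high 274 to 330, low 258 to 338 TPM) and day 8 (high 163 to 214, low 191 to 218 TPM). They were lower in the high wells on day 13 (67.7 to 72.2 against 171 to 232 TPM) and day 16 (42.4 to 49.9 against 158 to 236 TPM). The cardiomyocyte and stromal markers were also higher in the low wells of day 4 (stromal 342 to 515 TPM against 1396 to 1471 TPM). Their part in the result was not tested.

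On day 6 there were 10 members called higher and 3 lower in the high wells, where 3.61% of all genes were called higher and 5.19% lower. LDHA was at 364, 377, 359 and 303 TPM in the high and 79.6, 90.5, 91.7 and 84.1 TPM in the low wells (1.99, SE 0.13, limma adjusted p = 1.88e-16), where the difference on day 2 had been 1.48. ENO2 (2.09) and ALDOC (1.63) were the other glycolytic enzymes called (limma adjusted p = 5.45e-13 and 4.00e-11). SLC2A3 was at 1134, 1168, 1150 and 859 TPM in the high and 354, 394, 384 and 337 TPM in the low wells (1.53, SE 0.16, limma adjusted p = 6.47e-11). SLC2A1 showed the opposite order, at 61.1, 60.7, 54.2 and 54 TPM in the high and 168, 156, 167 and 249 TPM in the low wells (-1.66, SE 0.10, limma adjusted p = 9.22e-19). The 2 glucose carriers thus differed in opposite directions between the same wells. NDRG1, a cytoplasmic protein strongly induced by low oxygen, was at 7.38, 6.01, 6.26 and 6.84 TPM in the high and 20.8, 21.8, 22.6 and 33.5 TPM in the low wells (-1.73, SE 0.14, limma adjusted p = 2.79e-14). EPAS1 was still lower, at 5.9 to 7.21 TPM against 53.7 to 98.4 TPM (-3.17, SE 0.16, limma adjusted p = 2.98e-20). BNIP3 (1.55, SE 0.16, limma adjusted p = 6.93e-11), DDIT4 (1.26, SE 0.16, limma adjusted p = 1.80e-08) and VEGFA (1.11, SE 0.13, limma adjusted p = 1.07e-09) were higher, and PGK1 differed by 0.79. VEGFA fell just below the fold for a call, at 0.98, when the fourth low well of day 6 was left out.

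From day 8 on more members were called than on days 4 and 6. On day 8, 17 members were called higher and 1 lower, where 4.66% and 7.5% of all genes were. On day 13 the members were 18 and 1, against 4.55% and 6.23% of all genes, and on day 16 they were 21 and 2, against 5.76% and 7.65%. The glycolytic enzymes called higher were 11, 10 and 10 of 17 on these days, with medians of 1.24, 1.17 and 1.26, and all 17 had a positive difference on each. The other oxygen-response genes called higher were 3, 5 and 7 of 15, with medians of 0.64, 0.94 and 0.97. On day 2 the order of these medians had been the reverse, 1.01 for the enzymes and 1.53 for the other genes. The difference between the 2 groups of genes was not tested.

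LDHA was at 786, 1029 and 747 TPM in the 3 high wells and at 190, 286, 277 and 188 TPM in the 4 low wells of day 8 (2.10, SE 0.14, limma adjusted p = 3.04e-16). It was again higher on day 13 (1.89, SE 0.16, limma adjusted p = 5.55e-13) and day 16 (1.55, SE 0.15, limma adjusted p = 1.55e-11). ENO2 differed by 2.26, 1.70 and 2.15 on the 3 days (limma adjusted p = 4.40e-13, 2.89e-08 and 1.00e-11), and SLC2A3 by 2.06, 2.71 and 2.07 (limma adjusted p = 9.25e-14, 1.22e-15 and 4.39e-13). PGK1 was called on day 8 (1.22, SE 0.11, limma adjusted p = 1.66e-12) and was below the fold on day 13 (0.99) and day 16 (0.86). PGK1 lies at the threshold: without scaling beyond TPM its day 8 value was 0.99, and with RLE factors its day 13 value was 1.00 and called. On day 16, HK2 (1.82), GPI (1.80) and HK1 (1.66) were also called. Muscle isoforms outside the 39 genes were higher on that day as well, with 3 of 11 other glycolysis isoforms called, led by the insulin-responsive glucose carrier SLC2A4 (2.46, SE 0.29, limma adjusted p = 1.78e-09) and the muscle enolase ENO3 (1.61, SE 0.19, limma adjusted p = 6.77e-10). Over all genes 5.76% were called higher and 7.65% lower on day 16.

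BNIP3 was at 1821, 2097 and 2095 TPM in the high and 417, 720 and 703 TPM in the low wells of day 16 (1.97, SE 0.19, limma adjusted p = 3.35e-12). It was called on days 8 (1.81, SE 0.17, limma adjusted p = 7.12e-12) and 13 (1.75, SE 0.20, limma adjusted p = 6.82e-10) too. DDIT4 was at 230, 290 and 219 TPM in the high and 63.1, 72.4 and 82.7 TPM in the low wells of day 16 (1.97, SE 0.19, limma adjusted p = 4.51e-12) and was called on day 13 (1.51) but not on day 8 (0.81). VEGFA was higher on all 3 days, by 1.33, 1.40 and 1.54 (limma adjusted p = 5.78e-11, 5.39e-10 and 4.77e-12). EGLN3 was lower on day 13, at 37.7 TPM in each high well and 49.9 to 56.2 TPM in the low wells, but was not called. P4HA2 alone of the other oxygen-response genes was called lower on any of these 3 days. It was at 32.7, 37.5 and 32.3 TPM in the high and 105, 108 and 102 TPM in the low wells of day 16 (-1.38, SE 0.14, limma adjusted p = 5.83e-11), after -1.30 on day 13 (SE 0.15, limma adjusted p = 1.99e-09). P4HA2 hydroxylates collagen, and in the wells of day 16 the summed stromal markers, which include 3 collagens, were lower by a wide margin, as given above. On day 13 they summed to 797 to 992 TPM in the high and 8578 to 11030 TPM in the low wells. On day 6 they were already lower, at 858 to 1159 TPM against 3123 to 4847 TPM. P4HA2 overlapped on that day, at 18.8 to 26.1 TPM in the high and 17.3 to 26.1 TPM in the low wells. The part of the stromal markers in the result was not tested. EPAS1 was lower on day 8 (-1.56, SE 0.18, limma adjusted p = 5.89e-10) and day 16 (-2.10, SE 0.19, limma adjusted p = 8.84e-13). HIF1A was at 135, 151 and 145 TPM in the high and 167, 165 and 172 TPM in the low wells of day 16, which did not overlap in TPM, yet after TMM scaling its difference was 0.00 (SE 0.07), so its order rests on the scaling. Of the 20 textbook targets outside the list, 9 were called higher and 2 lower on day 16, where 5.76% and 7.65% of all genes were. The 2 lower, a share near that of all genes, included LOX, which cross-links collagen (-2.38, SE 0.14, limma adjusted p = 1.09e-18).

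Across the 6 tested days, 4 members were called higher on every day: ALDOC, ENO2, SLC16A3 and BNIP3. The members in which every high well lay above every low well numbered 36, 22, 25, 32, 32 and 34 on days 2, 4, 6, 8, 13 and 16, where 19%, 17.5%, 16.3%, 20.4%, 22.9% and 23.6% of all genes had that order. By adjusted p alone, whatever the fold, 36, 31, 29, 36, 33 and 35 of the 39 members differed in either direction on these days, where 37.4%, 36.8%, 39.9%, 44.1%, 35.9% and 43% of all genes did. No glycolytic enzyme was called lower on any of the 6 days, whereas 5 other members were on at least 1 day (SLC2A1, NDRG1, PDK1, P4HA2 and EPAS1). PFKM, PGAM1, LDHB, CA9, EGLN3 and HIF1A were called on none. How many of all genes were called on every day, on none, or lower on any day was not counted. The same differentiations were compared on each day, so nothing particular to the members is read from these counts across days.

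**Figure D3:**
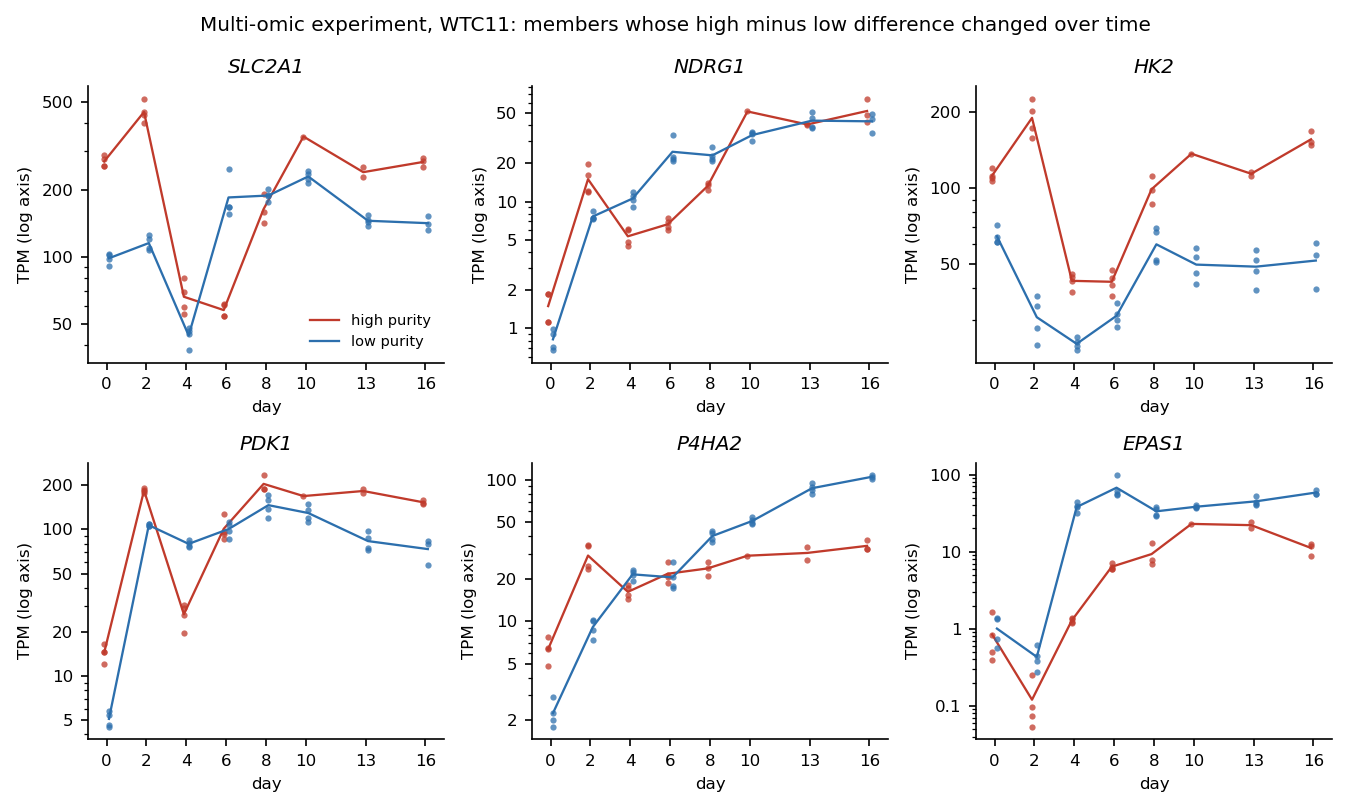
TPM (log axis) by day of SLC2A1, NDRG1, HK2, PDK1, P4HA2 and EPAS1 in every well of the multi-omic experiment, with lines through the means, red for high and blue for low purity. SLC2A1 and NDRG1 are higher in the high wells on day 2 and in the low wells on day 6, and P4HA2 climbs in the low wells to 102 to 108 TPM on day 16.

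Within each class many members had means that were high on day 2, low on days 4 and 6 and higher again from day 8. The mean of BNIP3 went from 345 to 3199, 396 and 479 TPM over days 0, 2, 4 and 6 in the high wells, and from 58.5 to 653, 173 and 161 TPM in the low wells. The mean of day 2 was above those of days 0 and 4 in 29 members in the high and 15 in the low wells, and all of the latter 15 were among the 29. The mean of day 8 was above that of day 6 in 37 and 33 members. These orders of means were not counted over all genes, so nothing particular to the members is read from them.

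From day 0 to day 2 of the high purity differentiation, 16 of the 37 members other than BNIP3 and DDIT4 rose and 1 fell, where 9.66% of all genes rose and 7.04% fell. SLC16A3 went from 3.28, 4.58, 5.59 and 4.42 TPM to 81.8, 97.2, 94.9 and 81.4 TPM (4.03, SE 0.14, limma adjusted p = 5.65e-28), and PDK1 from 12, 14.5, 16.6 and 14.7 TPM to 182, 193, 177 and 186 TPM (3.57, SE 0.11, limma adjusted p = 9.49e-29). NDRG1 (2.67), P4HA1 (2.56) and VEGFA (2.27) followed (limma adjusted p = 2.70e-21, 1.40e-24 and 6.58e-20), and PGK1 (1.27) and LDHA (1.02) rose less. LDHA lay at the threshold: it was at 0.97 without the first day 0 well, 0.97 without the second day 2 well and 0.99 without the third. EGLN3 fell (-1.25, SE 0.12, limma adjusted p = 4.95e-12). In the low purity differentiation 8 of 37 rose and 5 fell, where 11% of all genes rose and 6.87% fell. SLC16A3 (4.11) and PDK1 (4.01) also led the rises there (limma adjusted p = 2.62e-28 and 1.05e-30). In the low wells SLC16A3 started at 0.201 to 0.925 TPM, where the log2(TPM + 1) scale understates the change. Of the 17 enzymes, 5 rose and 0 fell in the high wells, and 1 rose (PKM) and 2 fell in the low wells, HK1 (-1.08, SE 0.11, limma adjusted p = 7.98e-12) and HK2 (-1.22, SE 0.13, limma adjusted p = 3.28e-11). PGK1 (0.36) and LDHA (0.19) were below the fold in the low wells. ADM (-2.08), AK4 (-1.71) and EGLN3 (-1.38) fell in the low wells (limma adjusted p = 6.14e-15, 3.39e-19 and 2.70e-13). HK1 was below the fold without scaling beyond TPM (-0.92). The change of HIF1A was -0.67 in the high and -0.96 in the low wells, below the fold in both. By adjusted p alone 33 (high) and 30 (low) of the 37 members changed, where 50.7% and 53.4% of all genes did. The 2 changes were not tested against each other, because their difference rests on the day 0 comparison that chose members.

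From day 2 to day 6, 25 members fell and 2 rose in the high wells, where 8.74% of all genes fell and 9.38% rose. Glycolytic enzymes made up 13 of the 25, and SLC2A1 (-3.14, SE 0.10), BNIP3 (-2.93, SE 0.16), ENO2 (-2.34, SE 0.18), HK2 (-2.33, SE 0.13) and PGK1 (-2.21, SE 0.10) fell most (limma adjusted p = 4.22e-15 or smaller). LDHA (-1.96) and DDIT4 (-2.17) fell as well, and EPAS1 (2.59, from 1 to 7 reads per well on day 2) and CA9 (1.14, from 0 to 8 reads) rose. CA9 was below the fold, at 0.95, without the second high well of day 2. In the low wells 11 members fell and 6 rose, where 9.58% of all genes fell and 10.9% rose. LDHA (-2.46, SE 0.13, limma adjusted p = 1.55e-20), ENO2 (-2.40, SE 0.18, limma adjusted p = 1.55e-15) and ALDOC (-2.15, SE 0.17, limma adjusted p = 2.12e-15) fell most, and PGK1 (-1.32), PKM (-1.65) and BNIP3 (-2.12) fell too. EPAS1 (5.42), VEGFA (1.57), NDRG1 (1.44), PFKFB3 (1.37) and PFKP (1.37) were the largest rises there (limma adjusted p = 5.27e-30, 1.27e-14, 1.71e-12, 2.03e-18 and 4.53e-15). By adjusted p alone all 39 members changed in the high and 33 in the low wells, where 52.9% and 55.4% of all genes did.

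The difference between the classes in this change was tested directly. This difference equals the high minus low difference of day 6 less that of day 2. It reuses the same wells and is not separate evidence from the day 2 calls. It was called for 12 members, all with the more negative change in the high wells, where 4.71% of all genes were called in that direction and 4.19% in the other. Without the fold requirement 25 members differed, where 29.8% of all genes did. The 12 were 8 of 15 other oxygen-response genes, 2 of 5 carriers and PFKFB enzymes, EPAS1 and 1 of 17 glycolytic enzymes. SLC2A1 differed most (-3.68, SE 0.13, limma adjusted p = 9.57e-25), having fallen in the high wells from 399 to 516 TPM on day 2 to 54 to 61.1 TPM on day 6, while the low wells went from 107 to 125 TPM to 156 to 249 TPM. NDRG1 (-2.66, SE 0.19), HK2 (-2.25, SE 0.18) and P4HA1 (-2.01, SE 0.15) followed (limma adjusted p = 4.91e-15, 1.38e-13 and 1.25e-14). EPAS1 rose in both classes and less in the high wells (-2.83, SE 0.23, limma adjusted p = 1.82e-13), a value that depends on few reads on day 2 and that missed the threshold in edgeR's quasi-likelihood test on recovered reads (-1.80, adjusted p = 0.116). DDIT4 was called (-1.50, SE 0.23, limma adjusted p = 1.11e-06), whereas BNIP3 (-0.81), PGK1 (-0.90), VEGFA (-0.88), LDHA (0.51) and HIF1A (-0.19) did not reach the fold. VEGFA did, at -1.01, without the third low well of day 2 or without the fourth low well of day 6. Of the 20 textbook targets outside the list 10 were called, all more negative in the high wells, led by CA12 (-2.01, SE 0.21, limma adjusted p = 1.9e-10) and the glycogen branching enzyme GBE1 (-1.86, SE 0.20, limma adjusted p = 2.28e-10).

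**Figure D4:**
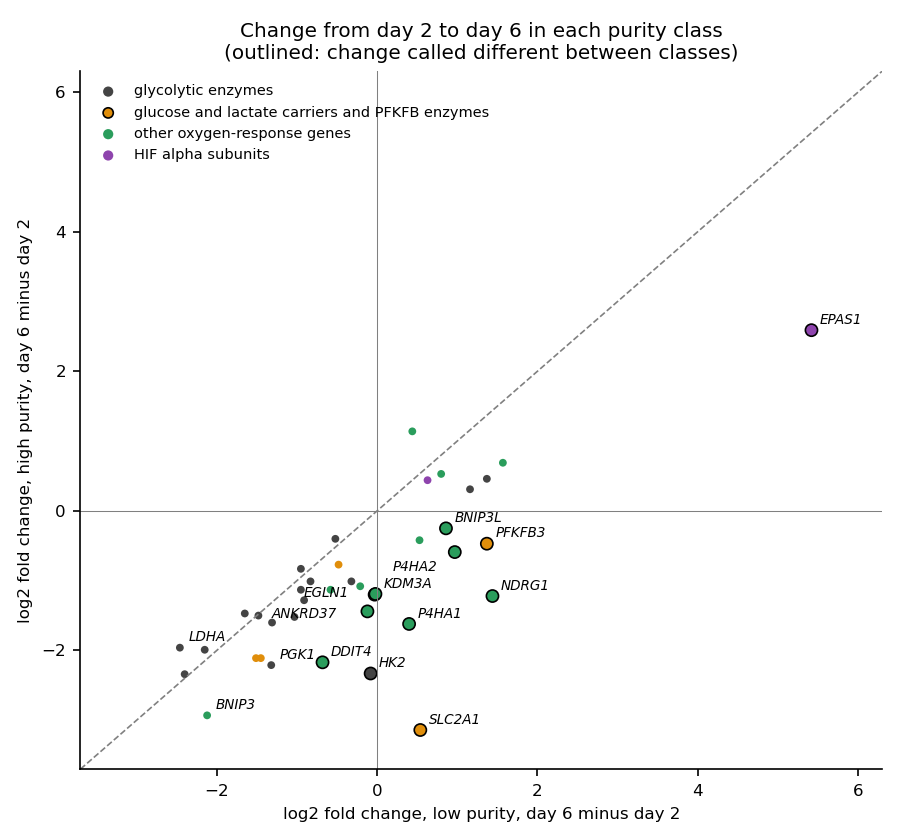
Log2 fold change from day 2 to day 6 in the low (x axis) and high (y axis) purity wells for the 39 members, coloured by group, with outlined points where the difference between the classes was called. Most glycolytic enzymes lie near the diagonal, and the 12 outlined members, SLC2A1 the farthest, lie below it.

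From day 6 to day 16, 26 members rose and 0 fell in the high wells, where 9.72% of all genes rose and 8.96% fell, and 13 rose and 0 fell in the low wells, where 7.54% and 5.81% did. Without the fold requirement 34 and 29 members changed, where 50.9% and 45.6% of all genes did. Among the largest rises in the high wells were NDRG1 (3.20, SE 0.15, limma adjusted p = 9.45e-23), SLC2A1 (2.66, SE 0.10, limma adjusted p = 2.24e-25), BNIP3 (2.52, SE 0.17, limma adjusted p = 8.97e-17), DDIT4 (2.42, SE 0.18, limma adjusted p = 5.04e-16) and ALDOC (2.32, SE 0.18, limma adjusted p = 2.95e-15). In the low wells they were P4HA2 (2.54, SE 0.14, limma adjusted p = 3.57e-20), LDHA (2.27, SE 0.14, limma adjusted p = 1.39e-17), EGLN3 (2.20, SE 0.13, limma adjusted p = 2.56e-18), ALDOC (2.11) and BNIP3 (2.11). LDHA (1.83) and PGK1 (1.47) rose in the high and PGK1 (1.40) in the low wells. VEGFA (0.75 and 0.32) and HIF1A (-0.08 and -0.06) did not reach the fold in either class. Without scaling beyond TPM the counts were 15 and 8, with the median of all genes shifted by -0.26 and -0.14. The difference in this change between the classes was called for 9 members (19 by adjusted p alone, where 34.7% of all genes differed). Of the 9, 8 had the larger rise in the high wells (5.77% of all genes called), led by SLC2A1 (2.79, SE 0.15, limma adjusted p = 7.84e-20) and NDRG1 (2.21, SE 0.21, limma adjusted p = 8.90e-12), and P4HA2 the larger rise in the low wells (7.18% of all genes called; -1.45, SE 0.19, limma adjusted p = 3.41e-08). SLC2A1 and NDRG1 thus reversed over days 6 to 16 the difference they had gained over days 2 to 6. Both differences use the same day 6 wells.

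The RNA-only experiment asked the same question over 3 lines, with each line's high and low differentiation as 1 replicate, and there no member was called between the classes. With edgeR's quasi-likelihood test over 24810 genes, 0 members were called between high and low purity on any of the 4 stages, and 0% of all genes were. At an unadjusted p below 0.05 the members numbered 0, 1, 1 and 4 over stages 1 to 4, where 1.46%, 7.74%, 7.37% and 11.8% of all genes passed. DESeq2 called 1 member, ADM at stage 2, at a log2 fold change of -1.47 (DESeq2 adjusted p = 0.00249). Without H9, ADM was called by edgeR at stage 2 (-1.77, adjusted p = 0.0198) and stage 3 (-1.24, adjusted p = 0.0135), over the other lines, WTC11 and IMR90-4. At stage 2 the high minus low difference was 0.28 (SE 0.87) for BNIP3, -0.38 (SE 0.45) for DDIT4, -0.44 (SE 0.45) for PGK1, -0.46 (SE 0.67) for LDHA and 0.30 (SE 0.25) for VEGFA. These standard errors, over 3 lines, are several times those over wells, and a p that misses the threshold does not show that the classes were alike. The members with the smallest p were ADM (-0.43, SE 0.28) and EPAS1 (-0.60, SE 0.42) at stage 1, ADM (-1.48, SE 0.30) and SLC2A1 (-0.61, SE 0.46) at stage 2, ADM (-0.88, SE 0.29) and PFKP (0.68, SE 0.37) at stage 3, and CA9 (1.33, SE 0.46) and PDK1 (0.94, SE 0.34) at stage 4.

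By line, with 1 library a class and so no test, the members differed in different directions. In H9, 22 of 39 members were at least 2-fold higher in the high library on day 5 and 25 on day 7, where 7.13% and 9.32% of all genes were. BNIP3 was there at 296 and 239 TPM in the high and 27.1 and 19.6 TPM in the low library, and LDHA at 351 and 346 TPM against 64.4 and 36.9 TPM. The largest was SLC2A3, with log2 differences of 4.23 and 4.77. On days 5 and 7 there were 0 members at least 2-fold lower, where 4.51% and 4.64% of all genes were. On day 0 H9 had 0 members that much higher or lower (0.838% and 1.21% of all genes), with BNIP3 at 521 TPM in the high and 429 TPM in the low library, and on day 3 it had 2 and 2 (4.52% and 5.02%). The low H9 libraries of days 5 and 7 also had more stromal marker RNA, 886 and 1693 TPM against 255 and 442 TPM, whereas cardiomyocyte markers were at 303 against 94.6 TPM on day 5 and at 314 against 1751 TPM on day 7. The part of these cells in the result was not tested.

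In IMR90-4, 3 members were at least 2-fold higher in the high library on day 0, where 0.822% of all genes were, with BNIP3 at 227 against 66.8 TPM. None was that much lower on day 0, where 0.822% of all genes were. On days 3, 5 and 7 the counts were 0 higher, where 0.795%, 2.18% and 2.17% of all genes were, and 1, 6 and 1 lower, where 1.08%, 1.39% and 1.98% were. In WTC11, the line of the multi-omic experiment, 0 members were higher on any of the 4 days, where 0.886%, 2.29%, 2.32% and 1.6% of all genes were, and 3, 1, 3 and 1 were lower, where 0.982%, 2.26%, 1.64% and 2.14% of all genes were. BNIP3 on day 0 was at 21.5 TPM in the high and 65.6 TPM in the low library of WTC11, the opposite order to the multi-omic wells. On day 2 it was at 593 and 571 TPM, so the day 2 difference of the multi-omic wells was not seen here. DDIT4 followed the same pattern, at 22.9 against 75.2 TPM on day 0 and 273 against 230 TPM on day 2. Over all genes, all 12 high and all 12 low wells of days 2, 4 and 6 of the multi-omic experiment were most like the high purity WTC11 library of the RNA-only experiment.

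**Figure D5:**
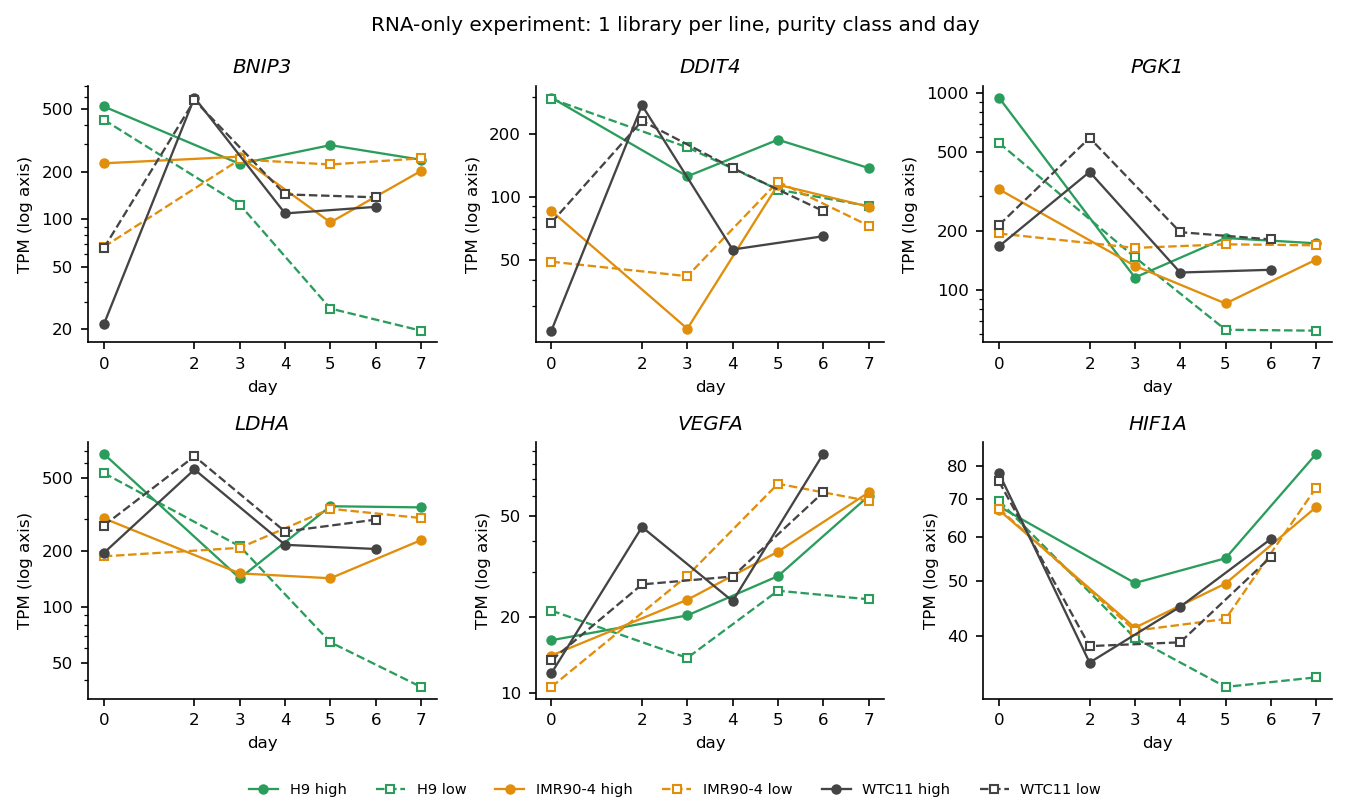
TPM (log axis) of 6 members in the RNA-only experiment, by line and day, 1 library per point. Colour marks the cell line, with green for H9, grey for WTC11 and orange for the other line. Filled circles on solid lines are high purity, and open squares on dashed lines are low purity. BNIP3 and LDHA of H9 separate from day 5 on, and those of WTC11 run close together from day 2 on.

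Changes over time were tested over all 6 differentiations with edgeR's quasi-likelihood test. From stage 1 to stage 2, 3 members rose and 5 fell, where 14.8% of all genes rose and 10.8% fell. By adjusted p alone 13 of the 39 members changed, where 50.9% of all genes did. NDRG1 (2.27, SE 0.32, edgeR adjusted p = 1.75e-05), PDK1 (1.65, SE 0.62, edgeR adjusted p = 0.0337) and P4HA1 (1.21, SE 0.41, edgeR adjusted p = 0.0202) rose. ADM (-2.53, SE 0.53, edgeR adjusted p = 0.000687), HK1 (-1.67, SE 0.29, edgeR adjusted p = 0.000132), AK4 (-1.52, SE 0.44, edgeR adjusted p = 0.0078), EGLN3 (-1.48, SE 0.36, edgeR adjusted p = 0.00223) and EPAS1 (-1.14, SE 0.43, edgeR adjusted p = 0.0343) fell. HK1, ADM, AK4 and EGLN3 had also fallen in the low wells of the multi-omic experiment over these days. BNIP3 (0.77, SE 0.78) depended on the line. It went from 65.6 to 571 and from 21.5 to 593 TPM in the WTC11 differentiations and from 429 to 124 and from 521 to 225 TPM in those of H9. The count of 8 was 15 without H9, 13 without WTC11 and 5 without IMR90-4. BNIP3 was called without H9 (2.59, edgeR adjusted p = 0.0053). PDK1 and P4HA1 were at 0.30 and 0.32 without WTC11, and EPAS1 was at -0.52, none of them called. AK4 (-1.32), EPAS1 (-1.03) and PDK1 (1.83) lost their calls without IMR90-4 (edgeR adjusted p = 0.0948, 0.162 and 0.118). PGK1 (-0.57), LDHA (-0.16), VEGFA (0.90) and HIF1A (-0.65) did not reach the fold. From stage 2 to stage 3 EPAS1 alone rose (1.82, SE 0.43, edgeR adjusted p = 0.00936), where 3.57% of all genes rose and 3.29% fell, and this call was lost without IMR90-4 (1.33, edgeR adjusted p = 0.173). At this step 5 members changed by adjusted p alone, where 16.6% of all genes did. From stage 3 to stage 4, 0 members were called, where 2.73% of all genes rose and 0.985% fell, and 2 changed by adjusted p alone, where 6.35% of all genes did. Those 2 were HIF1A (0.40, edgeR adjusted p = 0.0486) and LDHB (-0.26, edgeR adjusted p = 0.0453), DESeq2 called 2 members, and PGK1 (0.03), LDHA (-0.02), BNIP3 (0.09) and VEGFA (0.65) were not called.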

How the data were processed

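RNA of 80 libraries was measured by RNA sequencing. Per the submitters' processing notes, STAR 2.5.3a, featureCounts 2.0.3 and hg38 were used; the annotation and how TPM was computed are not given in the sources used here. The authors deposited, for each experiment, a table of raw read counts and a table of TPM. The members and lists were chosen with earlier results of these data known.

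The multi-omic tables disagreed on names: of the 56 columns, 0 had equal reads in the count and TPM tables, and 50 count columns equalled a TPM column under a different name. TPM columns lay nearest a column of their own group in 54 of 55 cases and count columns in 29, so TPM was used, with limma 3.58.1 (trend, TMM scaling, pseudocount of 1 TPM, at least 1 TPM in 3 libraries, means of 16 groups, 40 residual degrees of freedom). This replaced the count test where the counts' labels could not be trusted. Whole reads were recovered from TPM for 37194 genes (100% whole within 0.05) and tested with edgeR as an alternative. In the RNA-only experiment all 24 columns matched, and counts were tested with edgeR 4.0.16 (quasi-likelihood, TMM, Benjamini-Hochberg), between classes over lines (8 residual degrees of freedom) and between stages with the 6 differentiations as blocks (15); 36 broken lines (6 genes) were left out. DESeq2 1.42.0 was an alternative. Same-numbered wells did not deviate together (correlations from -0.0613 to 0.0884 over 18 pairs), so wells were not paired. Named in each comparison were BNIP3, DDIT4, PGK1, LDHA, HIF1A and VEGFA, up to 5 called members in each direction with the largest fold change (the 2 with the smallest p where none was called), and at most 2 genes of each other list. Day 10 was not tested. The fits were tested on simulated data. The values of 1 gene of the list of textbook targets are not reported here.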

Additional observations from a re-analysis of the deposited data

Results flagged for a closer look

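One well stood apart from the others of its group: VEGFA in the third low purity well of day 2 was at 76.4 TPM, where the next highest of the 4 wells was at 54.5 TPM. It was the single such case among 66 groups of 4 wells checked over 6 genes, and chance gives about 1 in 20 groups.

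The change from day 2 to day 6 differed between the classes for 5 members named here, high minus low: SLC2A1 by -3.68 (SE 0.13, limma adjusted p = 9.57e-25), EPAS1 by -2.83 (SE 0.23, limma adjusted p = 1.82e-13), NDRG1 by -2.66 (SE 0.19, limma adjusted p = 4.91e-15), HK2 by -2.25 (SE 0.18, limma adjusted p = 1.38e-13) and P4HA1 by -2.01 (SE 0.15, limma adjusted p = 1.25e-14). The change from day 6 to day 16 differed for 6: SLC2A1 by 2.79 (SE 0.15, limma adjusted p = 7.84e-20), NDRG1 by 2.21 (SE 0.21, limma adjusted p = 8.90e-12), ANKRD37 by 1.44 (SE 0.44, limma adjusted p = 0.00857), HK2 by 1.40 (SE 0.20, limma adjusted p = 1.45e-07), PFKP by 1.40 (SE 0.16, limma adjusted p = 2.29e-09) and P4HA2 by -1.45 (SE 0.19, limma adjusted p = 3.41e-08). ANKRD37 lay at few reads and lost its call with a pseudocount of 0.1 TPM (1.86, limma adjusted p = 0.0764).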

How the results depend on the processing

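Counts of called members in the multi-omic experiment changed by less than 1.5 times under DESeq2-style (RLE) factors, a pseudocount of 0.1 TPM, no filter, edgeR on recovered reads and the well number as a replicate block (25 on day 2 with the block, as without it). With adjusted p alone they rose to 31, 29, 36, 33 and 35 on days 4, 6, 8, 13 and 16, to 33 (high) and 30 (low) from day 0 to 2, to 33 (low) from day 2 to 6, to 29 (low) from day 6 to 16, to 25 and 19 for the differences in change, and to 13, 5 and 2 for the RNA-only steps. In the deposited multi-omic counts taken by their column headers, which hold other libraries' reads, they were 4, 6 and 9 on days 2, 8 and 16, 14 and 2 for the high wells from day 2 to 6 and 6 to 16, 4, 2 and 3 for the low wells over the 3 steps, and 0 for both differences in change. Without scaling beyond TPM, 15 (high) and 8 (low) members were called from day 6 to 16. DESeq2 called 1 at stage 2 between classes and 2 each from stage 2 to 3 and 3 to 4. Leaving out a line gave 0 to 1 between classes at stages 2 and 3, and 5 to 15, 0 to 4 and 0 to 1 over the 3 steps; leaving out a well moved no multi-omic count by 1.5 times. Of 1080 single-gene values under other settings 8 changed sign, all uncalled and near 0: HIF1A on day 6 (-0.01, RLE), day 13 (-0.07, no scaling), day 16 (0.02, RLE; 0.01, no filter; 0.01, edgeR) and in its change from day 6 to 16 (0.03, RLE), PGK1 in that change (-0.17, no scaling) and PGK1 from stage 3 to 4 (0.00, no filter). Leaving out a well or line changed 33 of 1472 signs. The ranges were -0.04 to 0.06, -0.03 to 0.02 and -0.05 to 0.03 for HIF1A on day 6, day 16 and in the change from day 6 to 16, and -0.08 to 0.15 for PGK1 in that change. For the classes in the RNA-only lines they were, at stage 1, -0.61 to 1.07 for BNIP3, -0.80 to 0.46 for DDIT4, -0.04 to 0.06 for HIF1A, -0.03 to 0.56 for LDHA and -0.23 to 0.06 for VEGFA; at stage 2, -0.01 to 0.43 for BNIP3 and -0.10 to 0.15 for HIF1A; at stage 3, -0.93 to 1.36 for BNIP3, -0.78 to 0.27 for DDIT4, -0.86 to 0.94 for LDHA and -0.95 to 0.27 for PGK1; at stage 4, -0.18 to 1.66, -0.41 to 1.35 and -0.33 to 0.55 for BNIP3, LDHA and PGK1. For the steps they were -0.55 to 2.59, -0.80 to 1.40, -1.00 to 0.75 and -1.56 to 0.54 for BNIP3, DDIT4, LDHA and PGK1 from stage 1 to 2, -0.92 to 0.91 and -0.92 to 0.07 for DDIT4 and LDHA from stage 2 to 3, and -0.27 to 0.20, -0.21 to 0.09 and -0.19 to 0.09 for BNIP3, LDHA and PGK1 from stage 3 to 4. The cause was not tested. At these depths CA9, EPAS1 on day 2 and ANKRD37 rest on few reads.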
